A study of Rattus norvegicus with 12 samples.

Results

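Ferrostatin-1 against vehicle in the lungs of rats given monocrotaline was compared here across all genes, with the 4 libraries of monocrotaline plus ferrostatin-1 (MCT-Fer-1) set against the 4 of monocrotaline plus vehicle (MCT-Vehicle), 8 of the 12 libraries of the study. The members were taken from the sample titles. The libraries held whole-lung total RNA of Rattus norvegicus of wild-type genotype, with a time of 25 days given for every sample. Both groups received monocrotaline, and the agent, ferrostatin-1 or vehicle, was given for 10 days. The other 4 libraries came from Control lungs, whose label names no agent. They entered the filter, the scaling and the model, where they share its estimate of the spread. Their values are also given below as a description. Neither strain, sex and age nor the vehicle and the doses of monocrotaline and ferrostatin-1 are stated in the labels. Whether the libraries stem from different rats is not stated either, and the p-values below measure the spread between these libraries, which may be technical in part.

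Monocrotaline is a plant alkaloid that the liver converts to a reactive pyrrole. The pyrrole reaches the lung, injures its endothelium and is followed by inflammation and remodelling of the small pulmonary arteries, so the treated rat serves as a model of pulmonary hypertension. Ferroptosis is a form of cell death driven by iron-dependent peroxidation of membrane lipids, and it is held back by glutathione, by GPX4, which reduces lipid peroxides, and by lipid-soluble radical traps. Ferrostatin-1 is a small synthetic radical trap of that last kind. The comparison asks which lung transcripts differ between monocrotaline-treated animals that did and did not receive it.

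Total counts ran from 13654695 to 24016262 in the MCT-Vehicle libraries and from 11601929 to 70627239 in the MCT-Fer-1 libraries, and 3 counts correspond to 0.0425 to 0.259 CPM (counts divided by library size) over the libraries. All CPM below use library sizes scaled by TMM factors. Mitochondrial transcripts made up 3.65 to 4.15% of counts in MCT-Vehicle and 3.28 to 4.20% in MCT-Fer-1. The labelled tissue was checked against alveolar type 2 cell markers, which summed to 45383 to 67676 CPM with vehicle and 44336 to 64449 CPM with ferrostatin-1. Within MCT-Vehicle, 2 libraries stood apart. MCT-Vehicle 2 lay alone on the first principal component, which held 22.5% of the variance, and carried heart-muscle and airway-gland transcripts, as did Control 4 at a lower level. On the second component, with 17.4% of the variance, MCT-Vehicle 3 lay at 4.12, on the side of the MCT-Fer-1 libraries (2.80 to 30.05), while MCT-Vehicle 1, 2 and 4 lay between -26.95 and -14.97. Some of the list counts and medians that moved by over 1.5 times without MCT-Vehicle 3, or without MCT-Vehicle 2 and Control 4, are given below. Those given without such values were not all stable.

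Of 15257 genes tested, 0 (0%) differed between MCT-Fer-1 and MCT-Vehicle at an adjusted p below 0.05 (edgeR's quasi-likelihood test, Benjamini-Hochberg adjustment), and the smallest adjusted p was 0.114. At an unadjusted p below 0.05, 893 genes (5.85%) were higher with ferrostatin-1 and 942 (6.17%) were lower. In either direction together, 1835 genes lay past that p. For reference, 5% of all tested genes, also counted over both directions, is 763. Every MCT-Fer-1 library lay above every MCT-Vehicle library for 474 genes (3.11%) and below for 457 (3%). DESeq2, the alternative test, called 100 genes higher (0.671% of 14912) and 137 lower (0.919%), and limma's voom with quality weights called 0. The median log2 fold change over all genes was -0.01, with quartiles of -0.15 and 0.12 and a median standard error of 0.136. In the same model 2843 genes (18.6%) differed between MCT-Vehicle and Control. That second comparison shares the MCT-Vehicle libraries with the first, so its values stand beside those of ferrostatin-1 below only as a description. When MCT-Vehicle 3 was left out, edgeR called 41 genes, 30 lower (0.194% of 15443) and 11 higher (0.0712%), of which 37 were also DESeq2 calls. In that fit 7.63% of genes were higher and 7.84% lower at an unadjusted p below 0.05. MCT-Vehicle 3 was singled out for lying on the MCT-Fer-1 side, so a wider difference without it follows partly from that choice. Here and for single genes below, calls made without it are no separate support. Leaving out MCT-Vehicle 2 together with Control 4 gave 0 calls, with 5.87% of genes higher and 5.9% lower at an unadjusted p below 0.05.

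The genes with the smallest p included a cytokine receptor, a tRNA-processing enzyme and several factors of ribosome assembly. By the rule for naming genes, 12 higher and 12 lower genes were taken in order of p among those whose groups did not overlap. The 24 had an edgeR adjusted p between 0.114 and 0.123, so none passed the test, and all 24 were called by DESeq2. The rule fixes the absence of overlap, which therefore is no result about them. DESeq2 used the same counts as the p that picked these genes, so its calls are no separate support for them.

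Lifr encodes the receptor chain for leukaemia inhibitory factor that also serves oncostatin M in rodents. Its level was 70.3, 87.7, 89.3 and 63.2 CPM in MCT-Vehicle 1 to 4 and 122, 109, 138 and 148 CPM in MCT-Fer-1 1 to 4. The Fer-1 libraries lay between the vehicle libraries and the Control libraries, which held 195 to 249.8 CPM. The log2 fold change was 0.74 ± 0.13 (standard error, n = 4 against 4), with an adjusted p of 0.114 by edgeR and 0.000141 by DESeq2. Against Control, the MCT-Vehicle libraries differed by -1.54 ± 0.13 on the log2 scale (edgeR adjusted p 3.36e-05).

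Cldn8, a claudin of tight junctions, was at 4.102, 5.22, 5.37 and 4.99 CPM in MCT-Vehicle and 9.14, 9.31, 9.83 and 9.64 CPM in MCT-Fer-1 (log2 fold change 0.95 ± 0.18). Selenop, a secreted selenium carrier that supplies selenium for selenoproteins such as GPX4, was abundant, at 1378, 1206, 1153 and 1058 CPM with vehicle and 1749, 1811, 1701 and 1538 CPM with ferrostatin-1 (log2 fold change 0.50 ± 0.10). Its lowest MCT-Fer-1 library lay above its highest MCT-Vehicle library by less than the range within either group.

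Tmem136 was at 51.2, 42.1, 62.6 and 67.1 CPM in MCT-Vehicle, 88.6, 89.9, 83.7 and 89.7 CPM in MCT-Fer-1 and 51.8 to 65.7 CPM in Control, so its MCT-Fer-1 libraries lay above Control as well as vehicle. Sstr1, a somatostatin receptor, had the largest log2 fold change of the 12 higher genes, 2.14 ± 0.44, but at low levels: 0.214, 0.318, 0.149 and 0.2101 CPM in MCT-Vehicle and 0.948, 0.369, 1.78 and 0.979 CPM in MCT-Fer-1. The vehicle values correspond to a few reads each and lie near the limit of 3 counts, so the size of this ratio is uncertain. Control libraries held 3.73 to 5.21 CPM of Sstr1, above both monocrotaline groups. Among the others of the 12 were Gpbp1l1, Miga1 (a mitochondrial fusion factor), Usp54, Cdk19 (a kinase of the Mediator complex), Etv1 (an ETS transcription factor) and Tnrc6b, with log2 fold changes between 0.34 and 0.67.

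Tsen34, a catalytic subunit of the endonuclease that removes introns from tRNAs, had the smallest p of all genes tested. It stood at 11.1, 9.03, 5.74 and 7.67 CPM in MCT-Vehicle and at 1.12, 1.29, 1.21 and 2.74 CPM in MCT-Fer-1, a log2 fold change of -2.34 ± 0.34 (adjusted p 0.114 by edgeR, 3.08e-07 by DESeq2). MCT-Fer-1 4 lay above the other 3 of its group, within the Control range of 1.65 to 3.32 CPM. Of the 11 tested genes of the tRNA endonuclease and ligase list, Tsen34 was the only one lower at an unadjusted p below 0.05 and 0 were higher. Its partner subunit Tsen54 was at 9.699, 11.02, 11.6 and 14.3 CPM with vehicle and 11.4, 10.3, 9.68 and 10.4 CPM with ferrostatin-1, and the tRNA ligase Rtcb had a log2 fold change of -0.09 ± 0.06, with overlapping groups for both.

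Bcl3, an IκB family partner of NF-κB subunits, was at 49.6, 30.9, 15.4 and 31.4 CPM in MCT-Vehicle and 10.9, 13.9, 12.97 and 9.51 CPM in MCT-Fer-1, a log2 fold change of -1.44 ± 0.27. MCT-Vehicle 3 was by far the lowest of its group and close to the MCT-Fer-1 libraries, and without it the log2 fold change was -1.66 (adjusted p 0.00977 by edgeR). Both values rest on leaving out the vehicle library nearest to MCT-Fer-1. Sbno2, a transcriptional regulator that responds to STAT3-activating cytokines, was at 148, 129.9, 103 and 122 CPM with vehicle and 71.3, 88.8, 83.7 and 68.4 CPM with ferrostatin-1 (log2 fold change -0.69 ± 0.12), again with MCT-Vehicle 3 lowest. St3gal4 (a sialyltransferase), Coq8b (a factor of coenzyme Q synthesis), Tle3 (a Groucho-family corepressor) and Mapkapk3 (a kinase downstream of p38) had log2 fold changes between -0.54 and -0.29. The remaining lower genes, Sfn, Dhx37, Rcl1, Ppan and Pno1, are described with their groups below. One unnamed locus, AABR07018038.3, is added here because it was the only gene edgeR called when the 8 libraries were fitted alone. It was chosen after its values were seen, and had 5.34, 3.22, 2.24 and 2.89 CPM in MCT-Vehicle but 0, 0, 0.0756 and 0.0559 CPM in MCT-Fer-1, at or near the limit of detection.

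**Figure D1:**
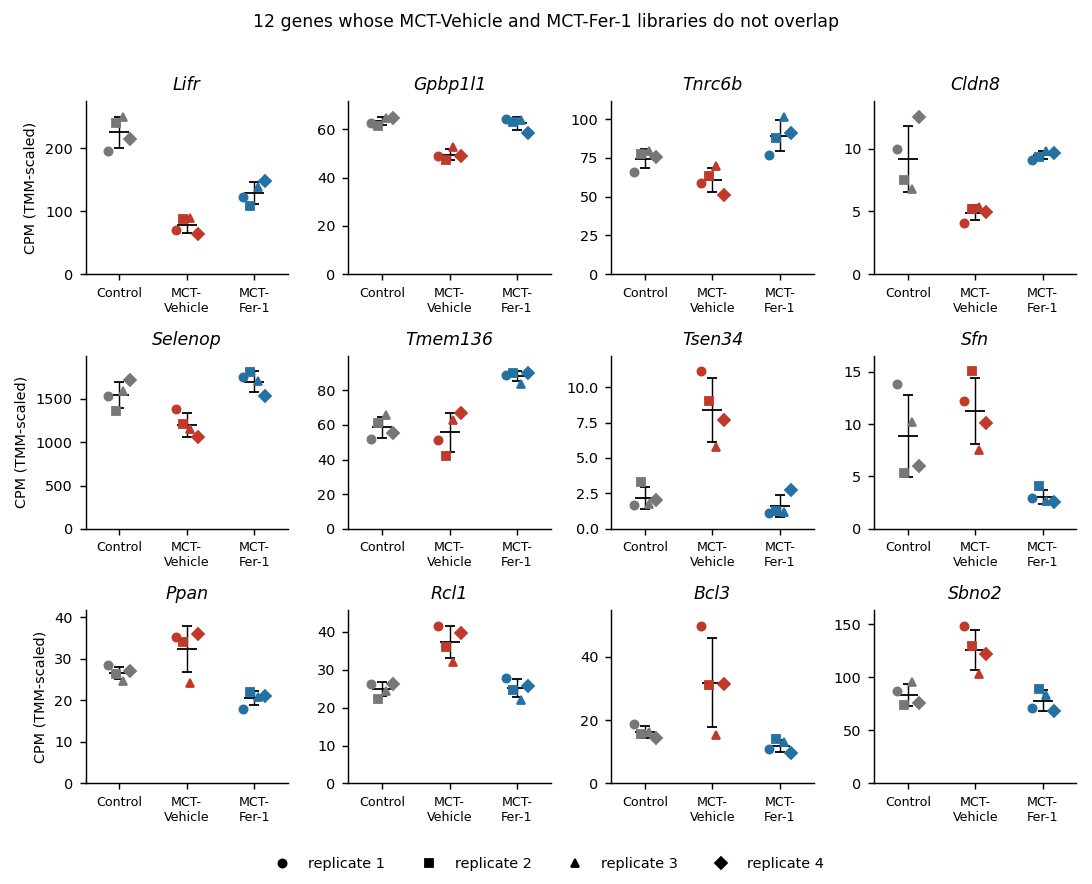
CPM (scaled by TMM factors) in each library for 6 higher and 6 lower genes, with Control, MCT-Vehicle and MCT-Fer-1 on the horizontal axis, symbols for replicates 1 to 4, and bars for the mean and SD of 4 libraries. Lifr in MCT-Fer-1 lies between vehicle and Control, Tsen34 lies near Control, and MCT-Vehicle 3 is the lowest vehicle library for Tsen34, Sfn, Ppan, Rcl1, Bcl3 and Sbno2.

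The gene lists that follow were compared with the same counts over all genes tested. At an unadjusted p below 0.05, 6.17% of all genes were lower and 5.85% higher. Groups did not overlap in 3% and 3.11%, and DESeq2 called 0.919% and 0.671%. Without MCT-Vehicle 3, 7.84% were lower and 7.63% higher at that p. Without MCT-Vehicle 2 and Control 4 these were 5.9% and 5.87%. Most lists with many members past an unadjusted p of 0.05 leaned towards lower values in MCT-Fer-1. The angiopoietin, pan-endothelial and RNA-silencing lists were among those with more members higher than lower. No member of any list passed edgeR's adjusted threshold. Over all lists, 70 genes belong to several, among them Il6 and C1qa, so counts in different lists are not independent. In whole lung, fewer cells of a type and less RNA per cell cannot be told apart.

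**Figure D2:**
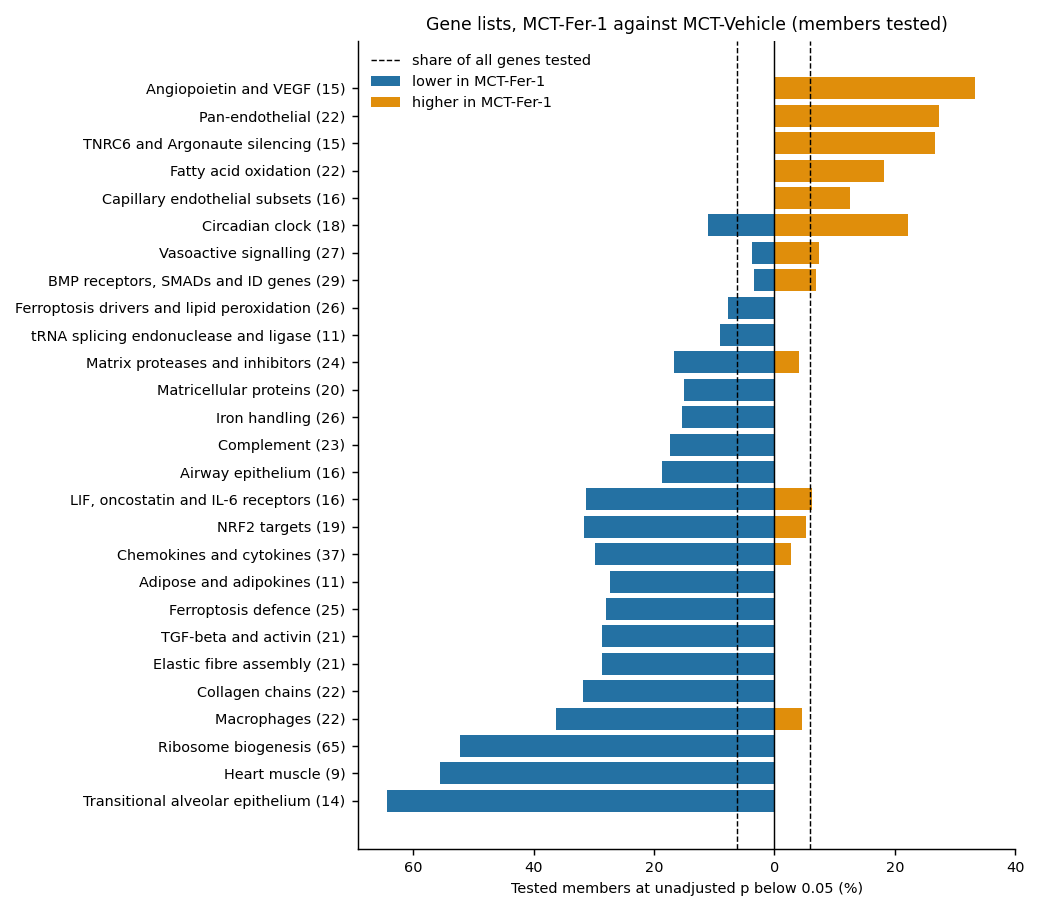
Share of tested members (%) of each of 27 gene lists that were lower (left) or higher (right) in MCT-Fer-1 at an unadjusted p below 0.05, with the number tested in parentheses and dashed lines at the shares of all genes tested (6.17% lower, 5.85% higher). Ribosome biogenesis (34 of 65 lower), heart muscle (5 of 9) and transitional alveolar epithelium (9 of 14) lie farthest to the left.

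Many ribosome biogenesis factors were lower in MCT-Fer-1. These mostly nucleolar proteins transcribe, cut, modify and fold the ribosomal RNA precursor and load it with proteins. Of 65 tested members of 68 listed, 34 were lower and 0 higher at an unadjusted p below 0.05, against 6.17% of all genes lower. The groups did not overlap in 14 members, all lower, against 3% of all genes, and DESeq2 called 13 lower and 0 higher. The median log2 fold change was -0.23, beside -0.01 for all genes, and 61 of the 65 were negative. The summed level was 3142.8 to 3719.8 CPM with vehicle, 2864.7 to 3231.7 CPM with ferrostatin-1 and 3025.3 to 3230.7 CPM in Control. The sums of the monocrotaline groups thus overlapped. Without MCT-Vehicle 3, 40 members were lower (7.84% of all genes) and the median was -0.28. Leaving out MCT-Vehicle 2 and Control 4 gave 32 lower (5.9% of all genes) and a median of -0.24. The proteins of the mature ribosome differed from this, with 3 lower and 0 higher of 51 tested cytosolic ribosomal protein genes and a median of 0.00. The difference between both lists was not tested.

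Ppan, a factor of large-subunit maturation, was at 35.3, 33.9, 24.1 and 35.9 CPM in MCT-Vehicle and 18.01, 21.9, 20.8 and 21.1 CPM in MCT-Fer-1, a log2 fold change of -0.66 ± 0.12 (adjusted p 0.114 by edgeR). MCT-Vehicle 3 stood well below the other 3 vehicle libraries, and without it the adjusted p by edgeR was 0.00977. That p rests on leaving out the vehicle library nearest to MCT-Fer-1. Rcl1, a factor of small-subunit RNA processing, was at 41.5, 36.02, 31.99 and 39.8 CPM with vehicle and 27.8, 24.8, 22.2 and 25.8 CPM with ferrostatin-1 (log2 fold change -0.57 ± 0.10). Its MCT-Fer-1 values lay around the Control range of 22.3 to 26.3 CPM. Dhx37, a helicase that releases the U3 small nucleolar RNA, was at 28.4, 29.1, 30.4 and 26.9 CPM in MCT-Vehicle and 18.96, 20.001, 21.4 and 20.6 CPM in MCT-Fer-1. In MCT-Fer-1, Dhx37 lay below its Control range of 21.9 to 27.1 CPM. Pno1, a small-subunit assembly factor, was at 31.3, 29.2, 25.4 and 29.5 CPM with vehicle and 21.5, 19.95, 21.2 and 19.8 CPM with ferrostatin-1 (log2 fold change -0.49 ± 0.09). Dkc1, the pseudouridine synthase that is also part of telomerase, had the lowest log2 fold change of the list, -0.67 ± 0.18, from 44.6, 37.7, 30.7 and 40.7 CPM in MCT-Vehicle and 28.01, 16.5, 25.5 and 26.9 CPM in MCT-Fer-1. It was picked after its values were seen, and MCT-Vehicle and Control did not separate for it (33.1 to 51.2 CPM in Control).

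**Figure D3:**
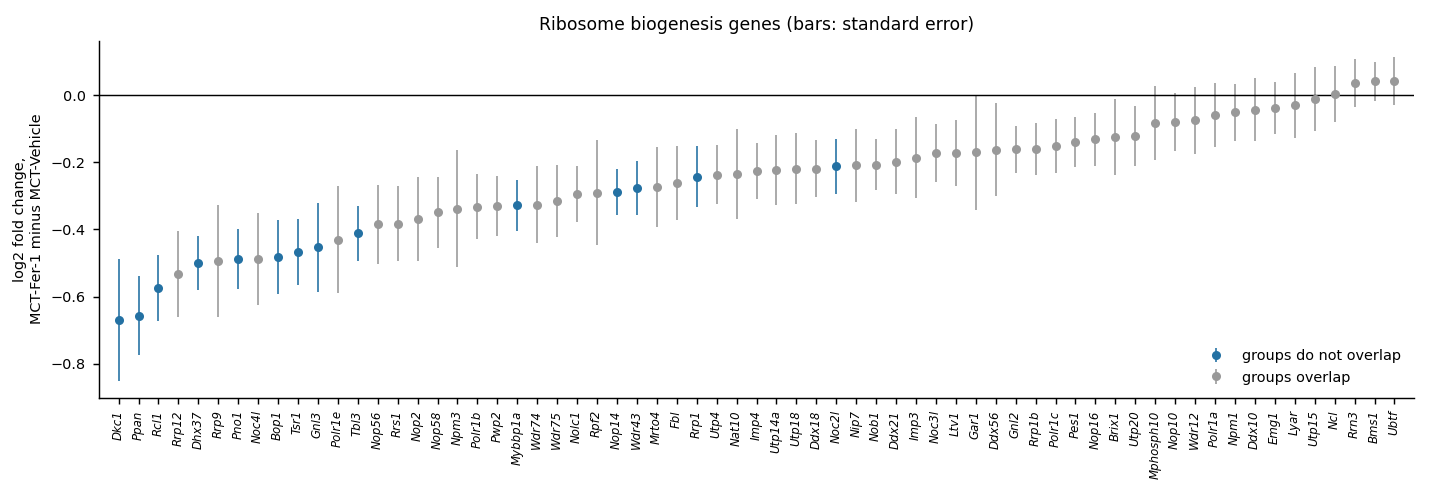
Log2 fold change (MCT-Fer-1 minus MCT-Vehicle) of the 65 tested ribosome biogenesis genes in order of size, with bars for the standard error and blue points where the 4 libraries of each group do not overlap. The values run from Dkc1 at -0.67 to just above 0, with 61 of 65 below 0 and the 14 blue points all below 0.

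The promoters of these genes were searched because MYC binds the E-box CACGTG and is known to drive ribosome biogenesis genes. The search, one of 12 motifs chosen after values were seen, covered the 250 bases before the RefSeq start (GRCr8) on both strands, and CACGTG is its own reverse complement. CACGTG occurred in 1872 of 33469 promoters (5.59%) and in 865 of the 10774 promoters of tested genes (8.03%). Among ribosome biogenesis genes it occurred in 14 of 60 promoters (23.3%), in 7 of the 29 lower at an unadjusted p below 0.05 (24.1%) and in 7 of the 31 others (22.6%). Its share was thus much the same in the lower members and in the others of the list. The following 100-base windows, in lower case with the E-box in capitals, show it in the 4 matching members of smallest p.
Mybbp1a, chr10:57555255-57555354 (+ strand): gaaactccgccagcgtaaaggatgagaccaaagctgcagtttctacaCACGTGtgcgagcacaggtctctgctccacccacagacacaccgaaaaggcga
Dkc1, chrX:157751420-157751519 (+ strand): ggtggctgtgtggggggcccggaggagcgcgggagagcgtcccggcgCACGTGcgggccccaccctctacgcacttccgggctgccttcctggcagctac
Gnl3, chr16:6219783-6219882 (- strand): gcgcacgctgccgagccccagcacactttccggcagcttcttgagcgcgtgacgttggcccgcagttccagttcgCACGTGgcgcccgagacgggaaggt
Wdr75, chr9:55395025-55395124 (+ strand): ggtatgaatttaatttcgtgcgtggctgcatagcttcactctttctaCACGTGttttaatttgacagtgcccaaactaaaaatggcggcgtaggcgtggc
Gnl3 (nucleostemin), with its E-box 25 bases before the start, was at 72.3, 63.1, 53.1 and 69.2 CPM in MCT-Vehicle and 47.9, 52.7, 45.01 and 43.002 CPM in MCT-Fer-1. Myc itself was at 62.3, 52.9, 39.6 and 44.9 CPM with vehicle and 37.7, 38.9, 49.7 and 34.6 CPM with ferrostatin-1, with overlapping groups and a log2 fold change of -0.31 ± 0.15 (adjusted p 0.431 by edgeR).

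The chemokines and cytokines that were lower in MCT-Fer-1 included Cxcl1, Ccl20, Cxcl6, Cxcl13 and Il6. Of 37 tested members of 40 listed, 11 were lower and 1 higher at an unadjusted p below 0.05, with a median log2 fold change of -0.23. Groups did not overlap in 6 lower members and 1 higher member (3% and 3.11% of all genes), and DESeq2 called 1 lower (0.919% of all genes). Without MCT-Vehicle 2 and Control 4 the number lower was 7, and without MCT-Vehicle 3 it was 13 with a median of -0.41. The summed level of the list overlapped, at 2981.6 to 3432.3 CPM with vehicle and 2625 to 3370 CPM with ferrostatin-1. Cxcl13, a B cell attractant named here after its values were seen, had the lowest log2 fold change of the list at an unadjusted p below 0.05, -2.195 ± 0.79. Of 19 neutrophil marker genes, 2 were higher and 0 lower, with a median log2 fold change of 0.32 and 16 positive. Without MCT-Vehicle 3, 4 were higher (7.63% of all genes). Their summed level overlapped, at 743 to 1756 CPM with vehicle and 819 to 2184 CPM with ferrostatin-1.

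Several of the lower chemokines carried a match to the NF-κB-type motif, GGG, any 2 bases, then TTTCC, in the same promoter window. It was found on either strand in 435 promoters (1.3%), in 183 of the promoters of tested genes (1.7%) and in 6 of 28 chemokine and cytokine promoters (21.4%). Of those 28, 5 of 9 that were lower held it (55.6%) and 1 of 19 that were not (5.26%), the interleukin-1 receptor antagonist Il1rn. A narrower form, GGGG, any 1 base, then TTTCC, was also among the 12 motifs searched. It matched 2 of the 9 lower (22.2%) and 0 of the 19 others. Another of the 12, the CCAAT box, was also in 5 of the 9 lower (55.6%). It was in 6 of the 19 others (31.6%) and in 36.4% of the promoters of tested genes. Shares of the remaining motifs in this list are not reported here. Cxcl1, Cxcl2 and Cxcl6 lie close together on the same chromosome, so their matches may not be independent. None of these differences in shares was tested. The windows of the 5 lower genes are shown because they carry the wider motif, with its bases in capitals. The genes were chosen after values were seen.
Cxcl1, chr14:17479353-17479452 (- strand): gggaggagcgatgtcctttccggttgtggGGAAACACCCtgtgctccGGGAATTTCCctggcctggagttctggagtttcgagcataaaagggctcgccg
Ccl20, chr9:91837023-91837122 (+ strand): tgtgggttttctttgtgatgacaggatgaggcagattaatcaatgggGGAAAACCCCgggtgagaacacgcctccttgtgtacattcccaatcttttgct
Cxcl6, chr14:17596453-17596552 (- strand): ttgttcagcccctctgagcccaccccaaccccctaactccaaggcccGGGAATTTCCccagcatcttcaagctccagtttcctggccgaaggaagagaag
Cxcl2, chr14:17467257-17467356 (- strand): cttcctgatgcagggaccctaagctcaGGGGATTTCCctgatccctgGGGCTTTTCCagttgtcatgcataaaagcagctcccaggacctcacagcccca
Il6, chr4:5894591-5894690 (- strand): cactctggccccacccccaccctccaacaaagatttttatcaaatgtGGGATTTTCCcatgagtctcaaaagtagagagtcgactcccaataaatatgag

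Cxcl1, a neutrophil attractant, was at 67.8, 39.7, 26.6 and 44.9 CPM in MCT-Vehicle and 20.3, 12.5, 25.3 and 15.97 CPM in MCT-Fer-1, a log2 fold change of -1.28 ± 0.29 (adjusted p 0.168 by edgeR, 0.00177 by DESeq2). The groups were separated by little, with MCT-Vehicle 3 at its lower edge and MCT-Fer-1 3 at its upper edge. Cxcl6, of the same family, was at 8.802, 21.9, 10.4 and 7.56 CPM with vehicle and 6.21, 4.29, 7.22 and 1.69 CPM with ferrostatin-1, a log2 fold change of -1.36 ± 0.46 that was -0.90 without MCT-Vehicle 2 and Control 4. MCT-Vehicle 2 was the highest library. Ccl20, which attracts lymphocytes and dendritic cells through CCR6, was at 9.57, 17.5, 3.65 and 3.83 CPM in MCT-Vehicle and 2.76, 2.17, 3.03 and 1.496 CPM in MCT-Fer-1. Its log2 fold change was -1.90 ± 0.62, and -1.29 without MCT-Vehicle 2 and Control 4. Cxcl2 was at 7.56, 3.99, 1.49 and 2.94 CPM in MCT-Vehicle and 0.948, 1.61, 2.69 and 1.300 CPM in MCT-Fer-1, and Il6 was at 1.71, 2.99, 0.522 and 3.73 CPM with vehicle and 0.259, 1.06, 0.719 and 0.1398 CPM with ferrostatin-1. For both, MCT-Vehicle 3 lay inside the range of MCT-Fer-1, so the groups overlapped. Ccl5, a T cell and monocyte attractant, was the one member that was higher, at 48.6, 27.8, 42.7 and 55.2 CPM in MCT-Vehicle and 70.8, 63.6, 68.3 and 63.8 CPM in MCT-Fer-1 (log2 fold change 0.61 ± 0.20).

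Among receptors and responders of the interleukin-6 family, Lifr was higher and Osmr, Socs3 and Stat3 were lower in MCT-Fer-1. Of 16 tested genes, 1 (Lifr) was higher and 5 were lower at an unadjusted p below 0.05, with a median of -0.16. The 5 include Il6, already counted among the cytokines. DESeq2 called 1 higher and 2 lower. Osmr, the second oncostatin receptor chain, was at 66.4, 76.9, 43.03 and 55.5 CPM in MCT-Vehicle and 38.6, 36.96, 33.9 and 23.5 CPM in MCT-Fer-1, a log2 fold change of -0.87 ± 0.25 (adjusted p 0.229 by edgeR). MCT-Vehicle lay above the Control range of 15.3 to 32.2 CPM and MCT-Fer-1 overlapped it. Socs3, the feedback inhibitor that STAT3 induces, was at 31.1, 33.6, 15.96 and 26.2 CPM with vehicle and 12.4, 15.5, 18.003 and 11.1 CPM with ferrostatin-1 (log2 fold change -0.91 ± 0.25), with MCT-Vehicle 3 inside the MCT-Fer-1 range. Osm, the ligand, was at 7.26, 7.39, 5.82 and 7.35 CPM in MCT-Vehicle and 3.45, 5.81, 5.79 and 2.73 CPM in MCT-Fer-1, and Stat3 was at 381, 399, 336 and 337 CPM with vehicle and 330.1, 309, 303 and 277 CPM with ferrostatin-1. These genes were chosen after values were seen, and for each the groups were apart by a small margin.

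The transitional alveolar epithelium list holds the keratins, stratifin and growth-factor genes of the cells between type 2 and type 1 cells during repair. Of 14 tested genes of 15 listed, 9 were lower and 0 higher at an unadjusted p below 0.05, with a median log2 fold change of -0.28. The groups did not overlap in 4, and DESeq2 called 3 lower. The summed level of the list was 2279 to 2866 CPM with vehicle, 2152 to 2220.0 CPM with ferrostatin-1 and 2252 to 2534 CPM in Control, so the sums of the monocrotaline groups did not overlap.

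Sfn, the 14-3-3 sigma protein, led the list at 12.2, 15.02, 7.53 and 10.1 CPM in MCT-Vehicle and 2.93, 4.06, 2.61 and 2.59 CPM in MCT-Fer-1, a log2 fold change of -1.89 ± 0.31 (adjusted p 0.114 by edgeR). Control libraries spanned 5.37 to 13.8 CPM, so the MCT-Fer-1 values lay below Control too, and the MCT-Vehicle libraries overlapped Control (log2 difference 0.35 ± 0.30, edgeR adjusted p 0.455). Fosl1, an AP-1 subunit, was at 6.79, 7.303, 1.42 and 5.57 CPM with vehicle and 1.03, 1.34, 0.719 and 0.769 CPM with ferrostatin-1 (log2 fold change -2.5), with MCT-Vehicle 3 close to the MCT-Fer-1 range. Control held 4.71 to 18.1 CPM of Fosl1. Areg, a ligand of the EGF receptor, was at 45.2, 24.3, 8.87 and 13.2 CPM in MCT-Vehicle and 6.89, 10.6, 9.64 and 6.74 CPM in MCT-Fer-1, where MCT-Vehicle 3 and MCT-Fer-1 overlapped. Krt8, a keratin chosen after values were seen, was at 402, 299, 334 and 330.2 CPM with vehicle and 277, 297, 276 and 287 CPM with ferrostatin-1. Markers of mature type 2 cells had 0 of 16 past an unadjusted p of 0.05, and type 1 markers had 2 of 15 higher and 0 lower.

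Macrophage markers were lower in part, led by C1qa, and the general marker Cd68 was not among them. Of 22 tested macrophage genes, 8 were lower and 1 higher at an unadjusted p below 0.05, with a median of -0.19 (-0.12 without MCT-Vehicle 3). Groups did not overlap in 5 lower, and DESeq2 called 4 lower. The summed level was 2380.0 to 3363 CPM with vehicle, 2411 to 2812 CPM with ferrostatin-1 and 1832 to 2141 CPM in Control, so the sums of the monocrotaline groups overlapped. C1qa, a chain of the complement component C1q, was at 106, 114, 127 and 157 CPM in MCT-Vehicle and 85.3, 90.8, 93.3 and 78.6 CPM in MCT-Fer-1 (log2 fold change -0.54 ± 0.13, edgeR adjusted p 0.189). Every vehicle library and every Fer-1 library was above the Control range of 26.3 to 38.04 CPM. Maf, a transcription factor of macrophages, was at 20.2, 19.7, 19.2 and 21.9 CPM with vehicle and 13.1, 15.2, 17.9 and 15.5 CPM with ferrostatin-1, a log2 fold change of -0.39 ± 0.11. Cd68 was at 139, 169.8, 330.1 and 165 CPM in MCT-Vehicle and 138, 161, 255 and 165 CPM in MCT-Fer-1. Its log2 fold change was -0.16 ± 0.26 and turned to 0.19 without MCT-Vehicle 3, the highest library.

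Complement genes had 4 lower and 0 higher of 23 tested, with a median of -0.16, and groups without overlap also numbered 4 lower and 0 higher. C1qc was at 118, 124, 105 and 174 CPM with vehicle and 92.8, 91.5, 86.2 and 77.3 CPM with ferrostatin-1, and C1qb at 88.1, 102, 97.5 and 149 CPM with vehicle and 87.05, 82.4, 86.3 and 67.5 CPM with ferrostatin-1. Cfd, complement factor D, a protease of the alternative pathway that fat cells also secrete, was at 24.7, 21.05, 46.6 and 23.7 CPM in MCT-Vehicle and 13.4, 12.8, 17.2 and 17.8 CPM in MCT-Fer-1, with the highest level in MCT-Vehicle 3 (log2 fold change -0.91 ± 0.26, and -0.59 without it).

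Some extracellular matrix genes were lower in MCT-Fer-1, among them Col1a1 and Loxl1. Of 22 tested collagen chains, 7 were lower and 0 higher at an unadjusted p below 0.05, with a median of -0.04. Leaving out MCT-Vehicle 2 and Control 4 left 3 lower, and without MCT-Vehicle 3, 7 were lower and 2 higher. Col1a1, the main chain of type I collagen, was at 643, 1090.0, 711 and 766 CPM in MCT-Vehicle and 480.2, 580.2, 575 and 477 CPM in MCT-Fer-1, and Control held 320.4 to 439 CPM. The log2 fold change was -0.60 ± 0.15 and was -0.42 without MCT-Vehicle 2 and Control 4. Col3a1 was at 2911, 3683, 2881 and 3219 CPM with vehicle and 2395, 2949, 2551 and 2005 CPM with ferrostatin-1, with overlapping groups, and Col18a1, whose C-terminal fragment is endostatin, had a log2 fold change of -0.62 ± 0.19.

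Elastic fibre assembly had 6 lower and 0 higher of 21 tested, with a median of -0.13, and 2 were lower without MCT-Vehicle 2 and Control 4. Loxl1, which cross-links tropoelastin, was at 141, 117, 102 and 144 CPM with vehicle and 90.8, 80.3, 89.6 and 79.8 CPM with ferrostatin-1, a log2 fold change of -0.56 ± 0.11 (adjusted p 0.114 by edgeR). Both groups lay above the Control range of 55.8 to 72.3 CPM. Eln, elastin itself, was at 1762, 1732, 1873 and 2148 CPM in MCT-Vehicle and 1988, 1243, 1608 and 1514 CPM in MCT-Fer-1, and the groups overlapped (log2 fold change -0.24 ± 0.14).

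Matricellular proteins had 3 lower and 0 higher of 20, with a median of -0.28. Tnc, tenascin C of remodelling tissue, was at 224, 234, 148 and 383 CPM with vehicle and 124, 158, 157 and 104 CPM with ferrostatin-1 (log2 fold change -0.87 ± 0.24), with MCT-Vehicle 3 inside the range of MCT-Fer-1. Thbs1 had a log2 fold change of -0.82 ± 0.28 and Thbs2 one of -0.68 ± 0.26, both with overlapping groups. Among matrix proteases and inhibitors, 4 of 24 were lower and 1 higher, with a median of -0.14. The number lower was 7 without MCT-Vehicle 3, and 2 with a median of -0.05 without MCT-Vehicle 2 and Control 4. Adamts4, an aggrecanase, was at 14.7, 23.5, 8.65 and 14.4 CPM in MCT-Vehicle and 9.48, 6.73, 4.46 and 4.88 CPM in MCT-Fer-1, and Adam10, a membrane sheddase, was the higher one, with 117, 134, 155 and 126 CPM with vehicle and 159.9, 164, 179 and 163 CPM with ferrostatin-1.

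In the TGF-beta and activin list, 6 of 21 were lower and 0 higher, with a median of -0.11 (-0.17 without MCT-Vehicle 3). Ltbp3, a carrier of latent TGF-beta, was at 94.3, 90.5, 80.7 and 96.7 CPM in MCT-Vehicle and 78.5, 69.2, 72.2 and 76.8 CPM in MCT-Fer-1, a log2 fold change of -0.29 ± 0.07 without overlap, and Ltbp1, the related carrier, had one of -0.42 ± 0.12 with overlapping groups. Inhbb, an activin subunit, was at 59.1, 57.3, 68.2 and 66.8 CPM with vehicle and 52.4, 47.1, 49.4 and 59.7 CPM with ferrostatin-1, below the Control range of 80.3 to 92.6 CPM in both.

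Endothelial genes were higher in part. Of 22 tested pan-endothelial genes, 6 were higher and 0 lower at an unadjusted p below 0.05, with a median of 0.13 and 2 without overlap, beside 5.85% of all genes higher and 3.11% without overlap in that direction. Without MCT-Vehicle 3, 6 were higher and 1 lower, with a median of 0.07. The summed level was 4201 to 5564 CPM with vehicle, 5054 to 6722 CPM with ferrostatin-1 and 7454 to 7991 CPM in Control. Calcrl, the receptor for adrenomedullin, was at 453, 351, 264 and 325 CPM with vehicle and 473, 510.3, 752 and 522 CPM with ferrostatin-1 (log2 fold change 0.70 ± 0.17, edgeR adjusted p 0.189). Control held 864 to 1032 CPM. Clec14a, a vascular C-type lectin, was at 239, 185, 152 and 182 CPM in MCT-Vehicle and 289.7, 208, 305 and 277 CPM in MCT-Fer-1, with Control at 644 to 693 CPM, and the groups overlapped. Erg, an endothelial ETS factor, had a log2 fold change of 0.30 ± 0.09. Kdr, the main VEGF receptor, chosen after values were seen, was at 426, 401, 429.7 and 467 CPM with vehicle and 601, 529, 616 and 511 CPM with ferrostatin-1. Of 16 capillary subset genes 2 were higher and 0 lower (1 higher without MCT-Vehicle 3), among them Kit at 102, 74.9, 114 and 151 CPM in MCT-Vehicle and 156, 153, 186 and 155 CPM in MCT-Fer-1. Other endothelial lists did not lean higher. Of 17 arterial and Notch genes 1 was higher and 1 lower, with a median of 0.007. Of 9 lymphatic endothelial genes 1 was higher and 0 lower, with a median of -0.07 and 6 negative.

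Angiopoietin and VEGF genes had 5 higher and 0 lower of 15, with a median of 0.16 (0.11 without MCT-Vehicle 3). Angpt1, the ligand that activates the endothelial receptor TIE2, was at 31.6, 37.6, 43.03 and 38.6 CPM in MCT-Vehicle and 60.8, 51.8, 56.1 and 42.3 CPM in MCT-Fer-1 (log2 fold change 0.48 ± 0.13). Tek, which encodes TIE2, was at 153, 165, 125 and 129.6 CPM with vehicle and 224, 153, 169 and 199.6 CPM with ferrostatin-1, while Control held 523 to 580.2 CPM. Both monocrotaline groups were thus below every Control library, and they overlapped each other. Vegfd, a lymphangiogenic VEGF, had a log2 fold change of 0.53 ± 0.16 with overlapping groups, from 34.01, 26.5, 26.3 and 36.6 CPM in MCT-Vehicle and 33.1, 53.8, 49.8 and 41.7 CPM in MCT-Fer-1.

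Receptors of the BMP pathway, whose type II receptor is the gene most often mutated in heritable pulmonary hypertension, were higher for Bmpr2 and Bmpr1a. Across the 29 tested genes of the pathway, 2 were higher and 1 lower at an unadjusted p below 0.05, with a median of 0.00, so the list as a whole lay near the background, and DESeq2 called 2 higher. Without MCT-Vehicle 3, 4 were higher and 1 lower. Bmpr2 was at 185, 168, 196 and 124 CPM in MCT-Vehicle and 278, 225, 272 and 207 CPM in MCT-Fer-1, a log2 fold change of 0.54 ± 0.15 (adjusted p 0.206 by edgeR, 0.0325 by DESeq2), with Control at 249 to 334 CPM. Bmpr1a, a type I receptor, was at 79.5, 85.6, 83.5 and 78.2 CPM with vehicle and 101, 103, 92.4 and 102 CPM with ferrostatin-1 (log2 fold change 0.28 ± 0.06). Grem1, an antagonist of BMPs, was at 1.495, 2.68, 0.9695 and 0.998 CPM in MCT-Vehicle and 1.38, 0.461, 0.643 and 0.196 CPM in MCT-Fer-1, at low levels with overlap. Vasoactive signalling genes had 2 higher and 1 lower of 27, near the shares of all genes. Of them 1 was higher without MCT-Vehicle 3 and 4 were higher without MCT-Vehicle 2 and Control 4. With all libraries the 3 were Calcrl above, Ace, angiotensin-converting enzyme, at 547, 648, 491 and 498 CPM with vehicle and 982, 583, 694 and 623 CPM with ferrostatin-1, and the thromboxane synthase Tbxas1 lower (log2 fold change -0.39 ± 0.16; -0.18 without MCT-Vehicle 3).

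**Figure D4:**
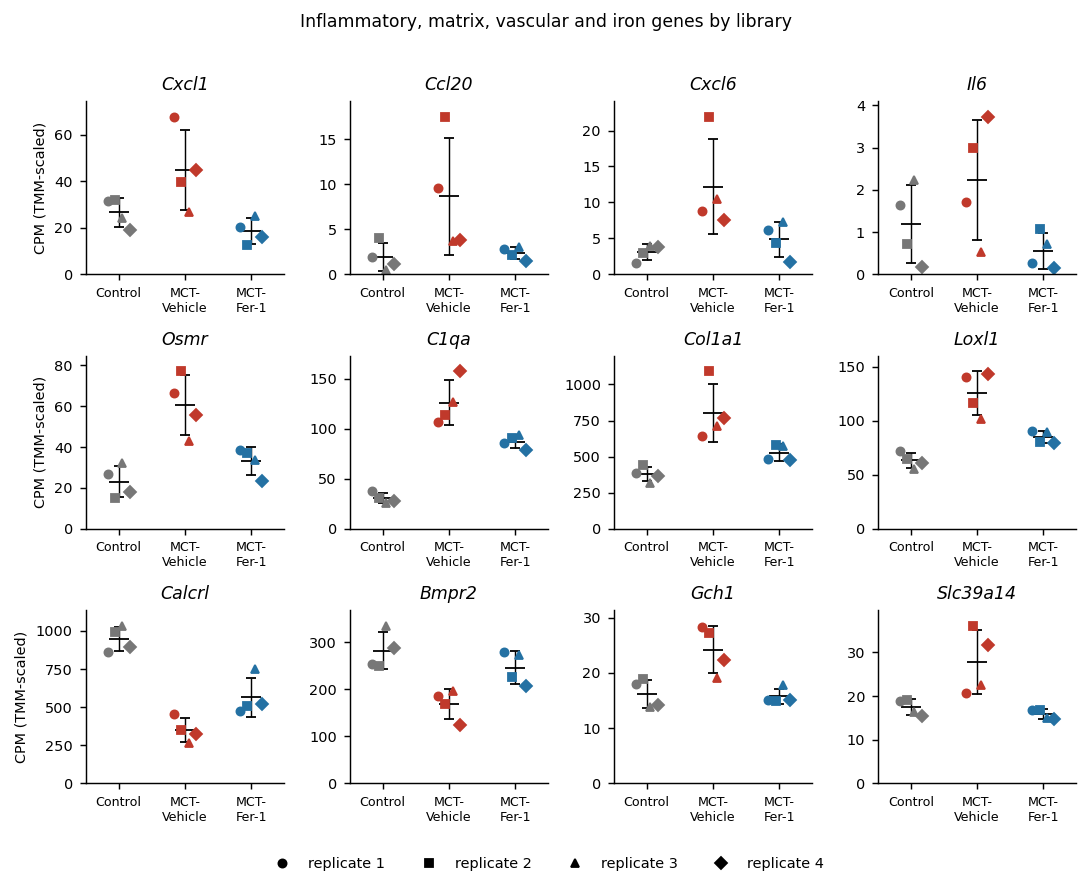
CPM (scaled by TMM factors) in each library for 12 genes of the inflammatory, matrix, vascular and iron lists, with Control, MCT-Vehicle and MCT-Fer-1 on the horizontal axis, symbols for replicates 1 to 4, and bars for the mean and SD of 4 libraries. MCT-Vehicle 3 is the lowest vehicle library for Cxcl1, Il6, Osmr, Loxl1 and Gch1, and Bmpr2 and Calcrl in MCT-Fer-1 lie between vehicle and Control or within the Control range.

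Of the genes that guard against ferroptosis, Gch1, Gss and Txnrd1 had the smallest p. The ferroptosis defence list had 7 lower and 0 higher of 25 tested at an unadjusted p below 0.05, with a median of -0.12 (-0.08 without MCT-Vehicle 2 and Control 4), 5 without overlap and 1 DESeq2 call. Gch1, the first enzyme of tetrahydrobiopterin synthesis, was at 28.3, 27.2, 19.2 and 22.3 CPM in MCT-Vehicle and 15.2, 14.98, 17.7 and 15.1 CPM in MCT-Fer-1, a log2 fold change of -0.62 ± 0.14 (adjusted p 0.158 by edgeR, 0.00845 by DESeq2), and MCT-Fer-1 lay within the Control range of 13.8 to 18.8 CPM. Gss, which completes glutathione, was at 20.9, 23.5, 21.5 and 25.8 CPM with vehicle and 18.8, 17.8, 19.9 and 15.9 CPM with ferrostatin-1. Txnrd1, thioredoxin reductase, was at 153, 159, 152 and 151 CPM in MCT-Vehicle and 140.2, 121, 129.9 and 119 CPM in MCT-Fer-1. Gpx4 was at 169, 148, 153 and 179 CPM with vehicle and 145, 124, 151 and 148 CPM with ferrostatin-1, with overlapping groups and a log2 fold change of -0.19 ± 0.08. Slc7a11, the cystine transporter, was low and scattered, at 2.18, 8.71, 7.01 and 3.62 CPM in MCT-Vehicle and 2.76, 2.53, 8.62 and 2.098 CPM in MCT-Fer-1 (log2 fold change -0.42 ± 0.53, and -0.06 without MCT-Vehicle 2 and Control 4).

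The drivers of ferroptosis lay near the background, with 2 lower and 0 higher of 26 and a median of -0.02, and 2 of each without MCT-Vehicle 3. Tfrc, the transferrin receptor, was at 94.04, 73.6, 73.2 and 77.5 CPM with vehicle and 71.4, 44.9, 54.4 and 64.9 CPM with ferrostatin-1, with a narrow gap between the groups. Acsl4, which loads membranes with polyunsaturated fatty acids, was at 375, 267, 227 and 149.8 CPM in MCT-Vehicle and 149, 287, 272 and 208 CPM in MCT-Fer-1, and Ptgs2, a transcript often read as a mark of ferroptosis, was at 7.78, 6.35, 6.12 and 6.303 CPM with vehicle and 5.86, 11.8, 9.001 and 6.54 CPM with ferrostatin-1. Both groups overlapped for each.

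Of 26 iron-handling genes, 4 were lower and 0 higher, with a median of 0.03. Slc39a14, a ZIP importer of non-transferrin iron that interleukin-6 induces in liver, was at 20.8, 36.02, 22.4 and 31.8 CPM with vehicle and 16.9, 16.8, 15.02 and 14.8 CPM with ferrostatin-1, a log2 fold change of -0.81 ± 0.16 (adjusted p 0.114 by edgeR, 0.00141 by DESeq2). Every MCT-Fer-1 value lay at or near the Control range of 15.3 to 18.99 CPM. Slc11a2, the DMT1 iron transporter, was at 81.99, 71.2, 56.2 and 61.1 CPM in MCT-Vehicle and 52.3, 50.9, 55.6 and 53.5 CPM in MCT-Fer-1. Hamp, hepcidin, was at 0.726, 8.94, 0.8204 and 1.26 CPM with vehicle and 0, 0.277, 0.0756 and 0.0699 CPM with ferrostatin-1, the latter at or near the limit of detection. Its highest value was in MCT-Vehicle 2, and in Control it was highest in Control 4, at 3.26 CPM. These libraries also had the highest sums of the heart-muscle transcripts described below. Other libraries did not keep that order: the heart-muscle sum was 28.5 CPM in MCT-Vehicle 1 and 50.5 CPM in MCT-Fer-1 2. The log2 fold change of Hamp lay between -5.48 and -3.08 in every setting, with no adjusted p below 0.153. The part of heart-muscle tissue in it was not tested. Fth1, the ferritin heavy chain, was at 2124, 1879, 2448 and 2386 CPM in MCT-Vehicle and 2185, 2020.2, 2379 and 2419.5 CPM in MCT-Fer-1 (log2 fold change 0.03 ± 0.12).

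NRF2 targets had 6 lower and 1 higher of 19, with a median of -0.15, but 3 lower without MCT-Vehicle 3 and 1 lower without MCT-Vehicle 2 and Control 4. Txnrd1 belongs to this list as well. Gclc, the rate-limiting enzyme of glutathione synthesis, was at 53.6, 64.2, 50.8 and 52.7 CPM with vehicle and 46.9, 48.1, 49.2 and 46.1 CPM with ferrostatin-1, Me1, which makes NADPH, had a log2 fold change of -0.18 ± 0.07, and Hmox1, haem oxygenase 1, was at 176, 174, 114 and 244 CPM in MCT-Vehicle and 68.9, 223, 175 and 95.8 CPM in MCT-Fer-1, with overlapping groups.

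Small-RNA silencing genes were higher for Tnrc6b and Ddx6. TNRC6 proteins carry Argonaute to the deadenylation complex. Of 15 tested members 4 were higher and 0 lower at an unadjusted p below 0.05, groups did not overlap in 4, and DESeq2 called 2 higher. Tnrc6b was at 58.9, 63.1, 69.6 and 51.2 CPM in MCT-Vehicle and 77.1, 87.98, 102 and 91.3 CPM in MCT-Fer-1 (log2 fold change 0.56 ± 0.10), Ddx6, a decapping cofactor, was at 62.1, 79.4, 79.4 and 63.9 CPM with vehicle and 95.5, 98.1, 96.9 and 88.7 CPM with ferrostatin-1, and Cnot1, the scaffold of the CCR4-NOT deadenylase, was at 188, 209.9, 209.9 and 188 CPM with vehicle and 221, 221, 222 and 225 CPM with ferrostatin-1. For Tnrc6b, 3 of 4 MCT-Fer-1 libraries lay above the Control range of 65.7 to 79.4 CPM.

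Fatty acid oxidation genes had 4 higher and 0 lower of 22, with a median of 0.07, and 2 higher without MCT-Vehicle 2 and Control 4. Cpt1a, the gatekeeper of mitochondrial import, was at 83.1, 81.5, 104 and 105 CPM with vehicle and 124, 148, 102 and 121 CPM with ferrostatin-1, with overlap, and Acadm, a medium-chain dehydrogenase, was at 87.2, 86.6, 85.8 and 73.4 CPM in MCT-Vehicle and 93.3, 95.3, 93.8 and 101 CPM in MCT-Fer-1.

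Clock genes varied widely between libraries of one group. Of 18, 4 were higher and 2 lower, with a median of 0.10, and 4 were higher and 1 lower with a median of 0.16 without MCT-Vehicle 2 and Control 4. Per3 was at 18.1, 19.9, 22.4 and 32.9 CPM with vehicle and 22.1, 36.8, 60.6 and 39.98 CPM with ferrostatin-1, and Tef at 74.8, 78.7, 117 and 138 CPM with vehicle and 132, 135, 221 and 168 CPM with ferrostatin-1. Dbp, a direct target of the clock activators, was at 4.49, 6.67, 8.95 and 26.7 CPM in MCT-Vehicle and 6.03, 27.7, 70.8 and 21.7 CPM in MCT-Fer-1, with MCT-Fer-1 1 far below MCT-Fer-1 3. Dbp, Nr1d1, Nr1d2 and Hlf were chosen after values were seen. MCT-Vehicle 4 and MCT-Fer-1 3 were the highest of their groups for all 4. The time of day of collection is not stated in the labels, and its part was not tested. The clock activators bind E-boxes, and CACGTG occurred in 5 of 15 clock promoters; that of Tef is shown as one example.
Tef, chr7:115206582-115206681 (+ strand): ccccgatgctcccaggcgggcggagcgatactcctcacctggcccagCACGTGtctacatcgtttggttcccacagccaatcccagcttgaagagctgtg
Nfil3, a repressor of the same D-box sites that Dbp and Tef activate, was at 21.5, 19.3, 12.2 and 14.5 CPM with vehicle and 11.98, 11.8, 8.699 and 8.63 CPM with ferrostatin-1.

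Transcripts of heart muscle and airway glands, and Adipoq, were high in MCT-Vehicle 2. The heart-muscle genes summed to 28.5, 446, 88.4 and 53.6 CPM in MCT-Vehicle 1 to 4, 30.5, 50.5, 24.9 and 25.4 CPM in MCT-Fer-1 1 to 4 and at most 277 CPM in Control. Of 9 tested, 5 were lower in MCT-Fer-1 at an unadjusted p below 0.05, with a median of -3.09; without MCT-Vehicle 2 and Control 4, 2 were lower and the median was -0.78, and without MCT-Vehicle 3, 3 were lower. Myh6, the atrial myosin heavy chain, was at 0, 104, 9.55 and 0.315 CPM with vehicle and 0, 0.277, 0.643 and 0.02797 CPM with ferrostatin-1. Scgb3a1, an airway secretoglobin, was at 1.45, 318, 6.64 and 1.31 CPM in MCT-Vehicle and 4.22, 1.98, 1.89 and 4.14 CPM in MCT-Fer-1. Its log2 fold change was -4.74 ± 1.99, and 0.0068 without MCT-Vehicle 2 and Control 4. The gel-forming mucin Muc5b went from -2.66 ± 1.20 to 0.58 when those libraries were left out. Of 16 airway genes 3 were lower, and 0 without those libraries. The summed level of the fat genes was 1462, 1195, 1487 and 956 CPM in MCT-Vehicle 1 to 4, so MCT-Vehicle 2 was not high for the list. Of 11 fat genes 3 were lower, and 1 without MCT-Vehicle 2 and Control 4. With all libraries the 3 were Cfd, Adipoq, the adipokine adiponectin, with 0.256, 4.63, 0.597 and 0.2101 CPM in MCT-Vehicle and 0.172, 0.184, 0.567 and 0.266 CPM in MCT-Fer-1 (log2 fold change -2.21 ± 0.90, and -0.12 without MCT-Vehicle 2 and Control 4), and Retn, resistin, with 1.84, 1.68, 4.18 and 0.158 CPM with vehicle and 0.0862, 0.0461, 0.3404 and 0.0559 CPM with ferrostatin-1. For Retn, 3 of 4 vehicle values lay above every MCT-Fer-1 value, with MCT-Vehicle 3 the highest.

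**Figure D5:**
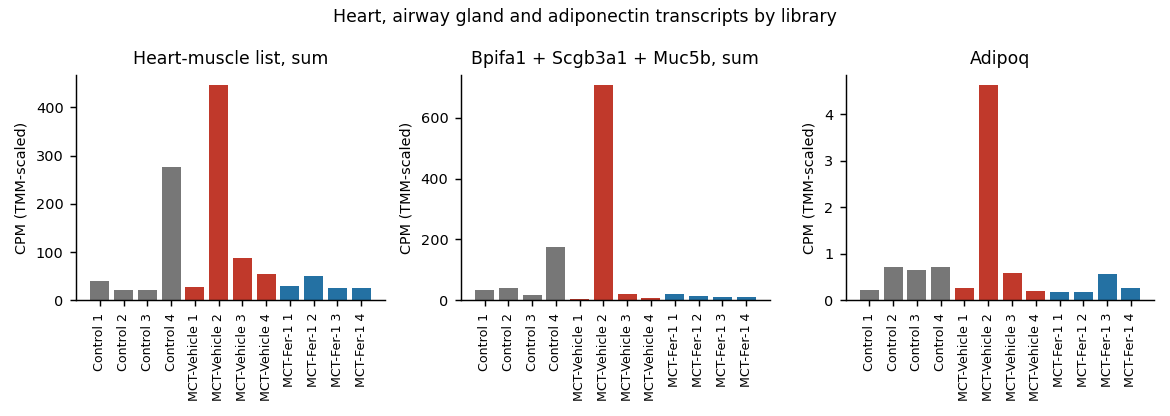
Summed CPM (scaled by TMM factors) of the heart-muscle genes (left), of Bpifa1, Scgb3a1 and Muc5b (middle) and of Adipoq (right) in each of 12 libraries, with bars starting at 0. MCT-Vehicle 2 is the highest library in all 3 panels, and Control 4 is the second highest in the left and middle panels.

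Other tissue and stress lists differed less. No member of the smooth muscle contractile, type 2 cell, mitochondrially encoded, cholesterol synthesis or B and plasma cell lists passed an unadjusted p of 0.05, and the interferon list had 1 lower of 30 and the DNA replication and mitosis list 1 higher of 32. T and NK lymphocyte genes had 2 higher and 0 lower of 24, with a median of 0.20, and p53 targets had 1 of each of 21. The smooth muscle list had a median of -0.29, with 12 of 15 negative, although 0 passed.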

How the data were processed

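Per the labels, whole-lung RNA was sequenced in 12 libraries. The authors deposited 1 table of whole-number read counts per gene, and beside them a mean signal per group that equals the mean of the deposited counts and was not used further. The aligner, counter, genome build and annotation are not stated in the sources used here.

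Counts of all 12 libraries were fitted in R 4.3.3 with edgeR 4.0.16: TMM factors, filterByExpr over the 3 groups (15257 of 32883 genes kept, 99.9% of counts), a robust quasi-likelihood model with 1 coefficient per group and 9 residual degrees of freedom, and Benjamini-Hochberg adjustment at 0.05. Standard errors were derived from each gene's fold change and F statistic. Log2 CPM used a prior count of 2. DESeq2 1.42.0 and limma 3.58.1 (voom with quality weights) were alternatives. The test was also run on simulated data with known changes. Depth sets the precision, and 3 counts is the limit for a count of 0. Counting error alone is covered by these limits.

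Genes were named by rule: the 12 higher and 12 lower of smallest p among tested genes whose groups did not overlap, leaving out identifiers without a symbol, the 3 of smallest p in each described list, and a short fixed set of ferroptosis, vascular and matrix genes. Some of these genes are not reported here. Others are marked as chosen after values were seen. Of 56 lists, 27 are described. Members and lists were chosen with earlier results of these data known. Replicate numbers pair no samples in the labels. Promoter sequences are RefSeq's, for GRCr8.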

Additional observations from a re-analysis of the deposited data

Results flagged for a closer look

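In 13 of the 232 gene and group combinations examined, 1 library lay far from the other 3 of its group, where chance alone gives about 11.6. Values are log2 CPM. In MCT-Fer-1, library 1 stood at 3.15 for Miga1, with the others at 2.81 to 2.85, and library 4 at 1.5 for Tsen34, with the others at 0.27 to 0.46. MCT-Fer-1 3 was high for Kit (7.54 against 7.26 to 7.28), Gch1 (4.16 against 3.91 to 3.93) and Me1 (5.83 against 5.60 to 5.61), and for Myl7 at -0.61, where the other 3 had no counts and stood at -3.54.

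In MCT-Vehicle, library 3 was low for Ppan (4.60 against 5.09 to 5.17), Fosl1 (0.59 against 2.5 to 2.89) and Osm (2.56 against 2.88 to 2.90). MCT-Vehicle 1 was high for Ptgs2 (2.97 against 2.63 to 2.69). MCT-Vehicle 2 was high for Fbln1 (7.28 against 6.77 to 6.84). MCT-Vehicle 4 was low for Acadm (6.20 against 6.42 to 6.45) and high for Hlf (1.99 against 1.07 to 1.22). No cause was tested for any of these.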

How the results depend on the processing

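The count of genes past an adjusted p of 0.05, 0 as reported, was 237 with DESeq2, 1 with the 8 libraries fitted alone and 1 with counts thinned to the smallest library total, and ran from 0 to 41 when 1 library was left out. Of those, 41 came without MCT-Vehicle 3, 3 without Control 2 and 2 without MCT-Fer-1 4. It stayed 0 with DESeq2's size factors, upper-quartile scaling, no filter, voom, the replicate block, the remaining single libraries left out, and MCT-Vehicle 2 left out with Control 4. Genes at an unadjusted p below 0.05, 1835 as reported, ran from 1442 to 2390 with 1 library left out and lay within 1.5 times under every other setting listed. Upper-quartile scaling called 53.3% of them higher against 48.7%.

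Replicate numbers pair no samples: deviations of same-numbered libraries correlated at -0.020, -0.009, 0.035 and -0.040, and 1 of 4 libraries correlated best with its own number. A replicate block gave 0 genes past the adjusted threshold and 1890 at an unadjusted p below 0.05.

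Directions turned for 5 named genes, and the cause was not tested. Scgb3a1 (-4.74) was at 0.0068 and Muc5b (-2.66) at 0.58 without MCT-Vehicle 2 and Control 4, with ranges of -5.15 to 0.048 and -3.06 to 0.58 over single libraries left out. Acsl4 (-0.15) ran from -0.34 to 0.0949, Cd68 (-0.16) from -0.37 to 0.19, and Fth1 (0.03) from -0.0432 to 0.0801, with -0.038 without MCT-Vehicle 2 and Control 4. Of the other gene values under alternatives, 2380 kept direction and side of the threshold and 73 passed it under an alternative alone. Of the list medians under alternatives, 1154 stayed within the spread between libraries and 22 did not. Depth limits Sstr1, Hamp and Retn, whose low values lie near 3 counts.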
